A study of Mus musculus with 8 samples.

Results

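Notch signalling was described through 10 genes of mouse liver progenitor cells: the receptors Notch1, Notch2 and Notch3, the ligands Jag1, Jag2 and Dll4, the nuclear effector Rbpj and the target genes Hes1, Hey1 and Nrarp. A gene was taken when the RefSeq accession printed for an array probe mapped to its symbol. All 10 genes had a probe, among 20660 genes named on the array, and all 10 were bright enough to be tested, among 14025 genes. BMEL cells, the bipotential murine embryonic liver line, are progenitor cells that can take on hepatocyte or bile duct features. The 8 arrays hold total RNA of this line after differentiation medium (DIFF, 2 arrays), after conditioned medium (CM, 3 arrays) or untreated (NoRX, 3 arrays). For short, all 3 groups are called media below. The study's title concerns conditioned medium of human amniotic epithelial cells. The labels carry no genotype, transgene, time or recipe of a medium, and no further treatment. All arrays come from a single cell line, and nothing in the labels says that the samples of a group were separate cultures, so p-values measure the spread between these samples, which may be technical.

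Notch receptors are single-pass membrane proteins that are activated by Jagged or Delta-like ligands on a neighbouring cell. Binding exposes the receptor to ADAM proteases and then to gamma-secretase, and the freed intracellular domain enters the nucleus, binds the DNA-binding protein Rbpj and switches on target genes such as those of the Hes and Hey families. In the developing liver, Jagged ligands and Notch receptors are best known for bile duct formation, and mutations of the human genes JAG1 and NOTCH2 cause Alagille syndrome, in which bile ducts are too few.

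The promoters of 8 of the 10 genes were matched in RefSeq's GRCm38.p6 table, Hes1 and Hey1 being the other two. The 250 bases before the start are given for Jag1, Jag2 and Nrarp because these 3 genes shared an order of levels across the media, and for Rbpj because it alone held the letters searched for. Those letters, TGGGAA, are the core of the sequence that Rbpj binds, and they were searched on both strands. Capitals mark them (as TTCCCA where they lie on the opposite strand).
Jag1 (chr2:137116521-137116770, minus strand): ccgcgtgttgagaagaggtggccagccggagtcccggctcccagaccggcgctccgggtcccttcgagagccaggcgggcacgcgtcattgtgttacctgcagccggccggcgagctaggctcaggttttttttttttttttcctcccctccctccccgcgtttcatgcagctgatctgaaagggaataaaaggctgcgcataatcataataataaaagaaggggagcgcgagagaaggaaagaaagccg
Jag2 (chr12:112929496-112929745, minus strand): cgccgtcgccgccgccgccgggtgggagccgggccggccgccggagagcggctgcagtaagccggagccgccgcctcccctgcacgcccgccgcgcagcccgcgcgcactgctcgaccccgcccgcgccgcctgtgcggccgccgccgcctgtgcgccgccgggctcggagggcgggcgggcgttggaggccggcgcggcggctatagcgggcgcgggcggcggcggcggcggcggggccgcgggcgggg
Nrarp (chr2:25180508-25180757, plus strand): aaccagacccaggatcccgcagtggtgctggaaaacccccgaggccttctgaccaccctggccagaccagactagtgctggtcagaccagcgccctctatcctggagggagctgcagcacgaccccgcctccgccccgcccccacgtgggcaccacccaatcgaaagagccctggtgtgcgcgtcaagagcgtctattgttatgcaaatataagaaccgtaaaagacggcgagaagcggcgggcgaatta
Rbpj (chr5:53590096-53590345, plus strand): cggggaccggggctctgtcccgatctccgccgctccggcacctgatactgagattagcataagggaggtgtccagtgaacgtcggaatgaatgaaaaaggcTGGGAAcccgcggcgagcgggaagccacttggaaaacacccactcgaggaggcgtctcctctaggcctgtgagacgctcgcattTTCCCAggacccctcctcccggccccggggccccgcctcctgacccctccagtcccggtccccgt
TGGGAA was present in 25.6% of the 32851 promoters of the table, counted over 300 bases each, and in 1 of the 8 matched genes. Of the 2 Rbpj promoters in the table, the one shown held it at bases 102 to 107 and, on the opposite strand, at bases 186 to 191, counted from the first base shown. The other Rbpj promoter overlaps it and held 1 copy, which is the second of these. At least 2 copies were present in 1245 promoters of the table, or 3.79%. A match of these letters is a description and not a binding site.

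Each value below is a log2 signal relative to the array's 75th percentile, so 0 is the 75th percentile of that array and a step of 1 is a doubling. Values of different genes come from different probes and are not compared with each other. The CM and NoRX arrays of a group were alike (pairwise Pearson r across genes 0.9909 to 0.9929 for CM and 0.9935 to 0.9943 for NoRX). The 2 DIFF arrays were less so (r = 0.9603), and their median SD per gene was 0.194, against 0.064 for CM and 0.064 for NoRX. The library labelled DIFF 2 stood apart: 46.4% of its spots were well above background, against 50.8% to 53.5% on the other arrays, and 1159 of its spots carried a flag for uneven local background, against 3 to 90. Because the spread was pooled over the 3 media, standard errors of the DIFF comparisons are too small for genes that follow the DIFF arrays' wider spread, and results with array weights, which let noisier arrays count less, stand beside them. Of 10 liver progenitor and hepatocyte markers, 8 were well above background on every array, among them Alb, Afp, Hnf4a and Krt18, while Apoa1 and Dlk1 were not. Their levels differed: of 9 tested, 4 rose and 5 fell in DIFF against NoRX in the fit without array weights, 100% called beside 42.1% of all genes. Alb was at a mean of 5.36 on DIFF, -0.22 on CM and -3.51 on NoRX arrays. Apoa1 was well above background on both DIFF arrays (mean 5.39), on 1 CM array and on no NoRX array. In RNA of a whole culture, fewer cells of a type and less RNA per cell cannot be told apart.

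Of the 10 Notch genes, 5 changed between CM and NoRX at an adjusted p under 0.05 in limma, 4 higher and 1 lower, and 52.2% of all genes tested did so (26.9% higher and 25.3% lower). Between DIFF and NoRX 7 changed, 2 higher and 5 lower, beside 42.1% of all genes (14.0% higher and 28.1% lower). Between DIFF and CM 8 changed, 3 higher and 5 lower, beside 59.2% of all genes (23.6% higher and 35.6% lower). The arrays of the compared media did not overlap for 7, 8 and 9 of the 10 genes in these comparisons, beside 71.0%, 57.1% and 68.4% of all genes, so the count for CM against NoRX is at the background. The 10 genes were chosen with earlier results of these data known, so all these counts are a description and not a test. With array weights the counts were 7, 4 and 6, beside 67.3%, 21.7% and 38.4% of all genes. The median difference of the 10 genes was 0.20 in CM relative to NoRX, beside 0.01 over all genes. In DIFF it was -0.28 relative to NoRX and -0.44 relative to CM, beside -0.10 and -0.11 over all genes. Each pair of comparisons shares a medium, so the 3 sets of calls are not independent.

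**Figure D1:**
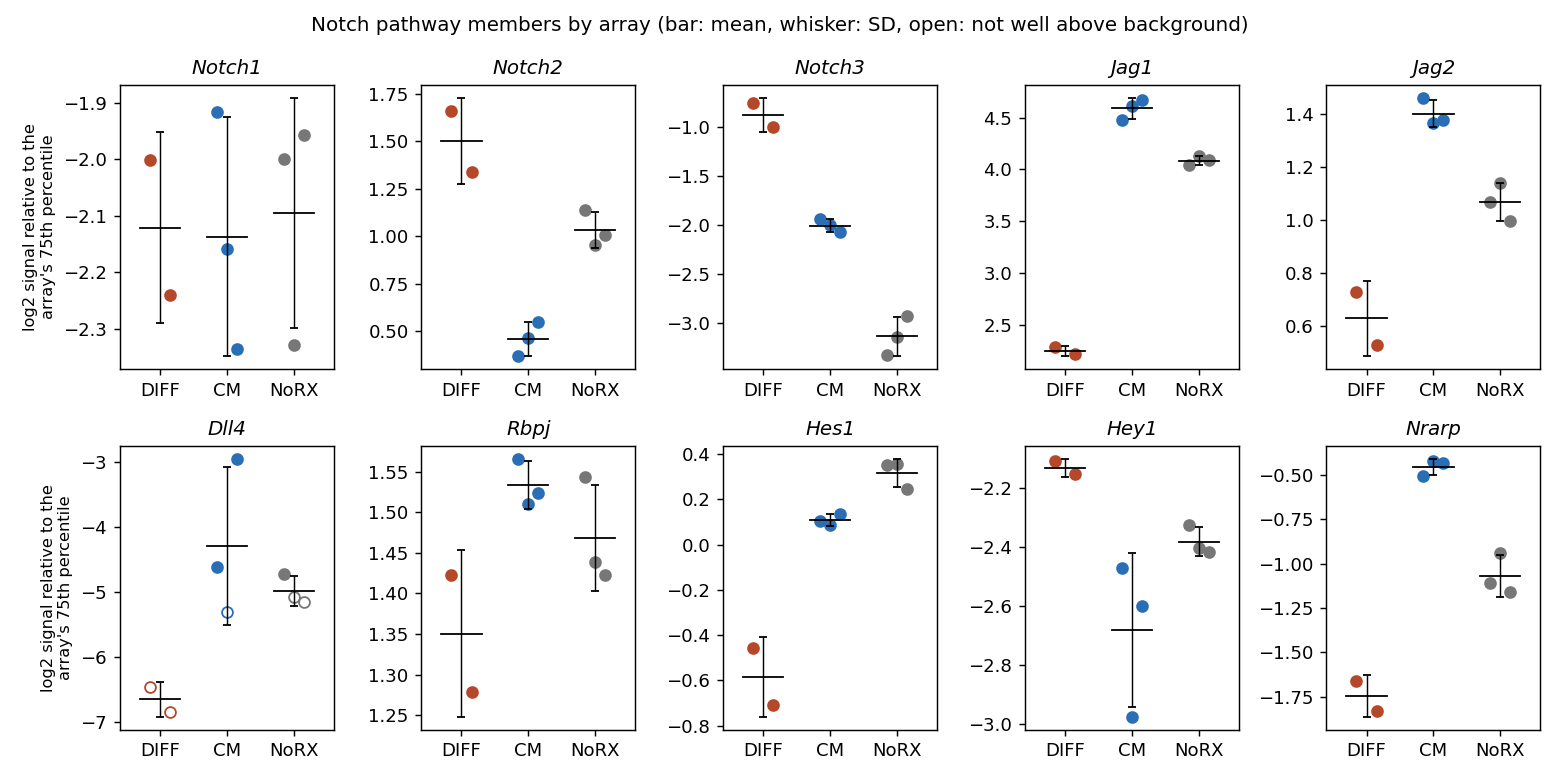
Log2 signal relative to the array's 75th percentile (vertical axis) of the 10 Notch genes on the DIFF, CM and NoRX arrays. Points are arrays, bars are means and whiskers SDs, and open points are not well above background: Jag1 lies lowest on the 2 DIFF arrays, Notch3 highest there, and Notch1 overlaps across the 3 media.

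Among the receptors, Notch3 and Notch2 changed in every comparison and Notch1 passed the test in none. Notch3, a receptor best known from vascular smooth muscle, was at -0.76 and -1.01 on the DIFF arrays, at -1.94, -2.01 and -2.07 on the CM arrays and at -3.33, -3.14 and -2.93 on the NoRX arrays. The 3 media did not overlap, with DIFF highest, CM next and NoRX lowest. Notch3 was 2.18-fold higher in CM than in NoRX (log2 difference 1.13 ± 0.14, SE; adjusted p = 4.39e-05, limma). DIFF was 4.76-fold above NoRX (2.25 ± 0.15, adjusted p = 4.22e-07) and 2.18-fold above CM (1.12 ± 0.15, adjusted p = 7.09e-05). All 3 of these calls also passed with array weights, at adjusted p = 3.41e-06, 5e-04 and 0.0169.

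Notch2, the receptor most closely tied to bile duct formation, ran in another order. Its brighter probe was at 1.66 and 1.34 on the DIFF arrays, at 0.37, 0.46 and 0.55 on the CM arrays and at 1.14, 0.95 and 1.00 on the NoRX arrays. CM was lowest and DIFF highest, with no overlap between any pair of media. Notch2 was 1.49-fold lower in CM than in NoRX (log2 difference -0.57 ± 0.10, SE; adjusted p = 0.000475, limma) and 2.06-fold higher in DIFF than in CM (1.04 ± 0.11, adjusted p = 8.46e-06). The smaller difference of DIFF over NoRX, 1.38-fold (0.47 ± 0.11), passed at adjusted p = 0.0048 and was lost with array weights (adjusted p = 0.112). A dimmer Notch2 probe was well above background on 0 of 8 arrays and adds no measurement.

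Notch1, a receptor best known from T cell development, was at -2.00 and -2.24 on the DIFF arrays, at -1.92, -2.16 and -2.34 on the CM arrays and at -2.00, -2.33 and -1.96 on the NoRX arrays by its brighter probe. The 3 media overlapped fully. CM differed from NoRX by -0.04 ± 0.15 (SE), and DIFF differed by -0.03 ± 0.17 from NoRX and by 0.02 ± 0.17 from CM, with adjusted p = 0.844, 0.917 and 0.94 in limma. A dimmer Notch1 probe read differently, most of all on DIFF 2. It stood at -3.67 and 4.38 on the DIFF arrays, at -6.38, -3.54 and -6.12 on the CM arrays and at -7.22, -7.32 and -5.89 on the NoRX arrays, and was well above background on both DIFF arrays and 1 CM array. Its value on DIFF 2 was thus 8.05 log2 units above that on DIFF 1.

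That spot lies in a disturbed patch of the DIFF 2 array. In a window of 10 rows and columns around it, 127 of 235 spots were flagged for uneven local background on DIFF 2, against 0 on any other array. The spot itself carried no such flag. The median of DIFF 2 minus DIFF 1 over the window was 7.08, and over all spots it was -0.18. A test of this probe alone gave a difference of 7.17 ± 1.75 for DIFF against NoRX (adjusted p = 0.00699, limma), where the brighter probe gave -0.03. The patch did not reach the brighter probe, whose window held 0 flagged spots on DIFF 2. The dimmer probe was also well above background on DIFF 1 and CM 2, where its window held 0 flagged spots. The cause of those 2 readings was not tested.

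**Figure D2:**
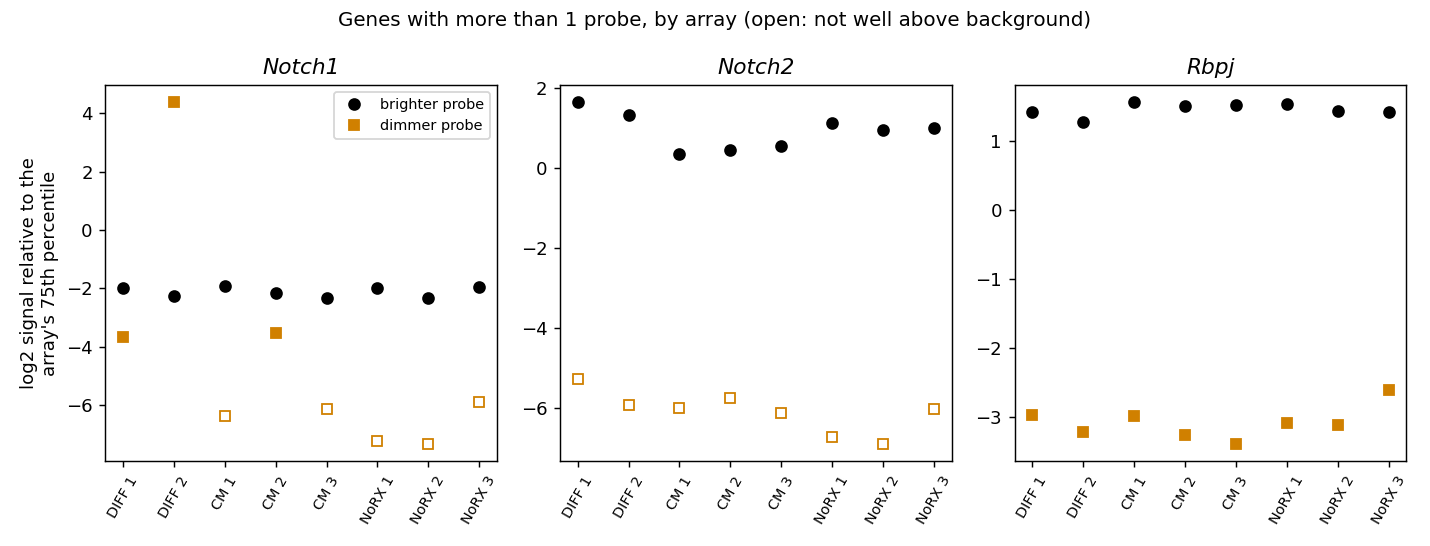
Log2 signal relative to the array's 75th percentile (vertical axis) of the brighter (circle) and dimmer (square) probes of Notch1, Notch2 and Rbpj on each of the 8 arrays. Open symbols are not well above background; the dimmer Notch1 probe reaches 4.38 on DIFF 2 and is at or below -3.54 on the other 7 arrays.

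The Jagged ligands were lowest after DIFF medium. Jag1, the Jagged ligand needed for bile duct development, was at 2.28 and 2.21 on the DIFF arrays, at 4.47, 4.62 and 4.67 on the CM arrays and at 4.04, 4.12 and 4.09 on the NoRX arrays. No media overlapped. Jag1 had the widest range of group means among the 9 genes measured on all arrays, 2.34 log2 units. DIFF was 3.57-fold below NoRX (-1.84 ± 0.08, SE; adjusted p = 1.17e-08, limma) and 5.07-fold below CM (-2.34 ± 0.08, adjusted p = 8.8e-10), while CM was 1.42-fold above NoRX (0.50 ± 0.07, adjusted p = 0.000132). These calls all passed with array weights.

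Jag2, the second mammalian Jagged ligand, had the same order with smaller steps. It was at 0.73 and 0.53 on the DIFF arrays, at 1.46, 1.37 and 1.38 on the CM arrays and at 1.07, 1.14 and 0.99 on the NoRX arrays, without overlap. Jag2 was 1.26-fold higher in CM than in NoRX (log2 difference 0.34 ± 0.08, SE; adjusted p = 0.00393, limma) and 1.71-fold lower in DIFF than in CM (-0.78 ± 0.09, adjusted p = 1.65e-05). DIFF was 1.36-fold lower than NoRX (-0.44 ± 0.09, adjusted p = 0.0019), a call that was lost with array weights (adjusted p = 0.0551).

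Dll4, a Delta-like ligand best known from endothelial tip cells, lay near the detection limit. It was at -6.46 and -6.84 on the DIFF arrays, at -4.61, -5.30 and -2.95 on the CM arrays and at -4.72, -5.07 and -5.15 on the NoRX arrays. These were well above background on 0 of 2 DIFF, 2 of 3 CM and 1 of 3 NoRX arrays, so the DIFF values are bounds. The DIFF readings lay below both other media without overlap, while CM and NoRX overlapped (0.69 ± 0.54, SE, adjusted p = 0.313, limma). Against CM, Dll4 was at least 1.53-fold lower in DIFF, with adjusted p = 0.00576. That fold sets the mean of the CM arrays against the mean of each DIFF array's lowest signal that was well above background. It includes CM 2, which was not well above background, and rests on CM 3: without CM 3 the CM mean is -4.96, under the DIFF bound of -4.90, and no fold above 1 remains. Against NoRX, no bound above 1 could be given (adjusted p = 0.0455). With array weights neither call passed (adjusted p = 0.296 against CM and 0.539 against NoRX), and after normexp background correction the differences were 0.02 and 0.24. Leaving out any 1 of the NoRX or DIFF arrays also ended the call against NoRX (-1.48 to -1.86, adjusted p = 0.0649 to 0.141). The Dll4 spot also had 121 of 419 neighbouring spots flagged on DIFF 2, but the median there was -0.17, beside -0.18 over all spots.

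Markers of other cells that carry Notch genes were measured beside the ligands. Signals summed over a marker list are linear and relative to the 75th percentile. Of 10 endothelial markers, Tek, Tie1 and Emcn were well above background on no array and Pecam1, Kdr, Egfl7 and Vwf on all 8, and the list summed to 14.8 to 17.4 on DIFF, 16.0 to 17.1 on CM and 16.8 to 18.7 on NoRX arrays. Of 10 stellate cell, pericyte and smooth muscle markers, Pdgfrb, Rgs5, Lrat and Cspg4 were well above background on no array and Des on all, and the sum was 0.267 to 0.356 on DIFF, 1.56 to 1.59 on CM and 0.69 to 1.45 on NoRX arrays. Those 2 lists therefore include defining markers that were not detected. Of 9 leukocyte markers with a probe, Adgre1 and Lyz2 were detected on no array and Csf1r, Cd14, Itgam and Cd3e on all, and the list summed to 11.7 to 14.2 on DIFF, 22.8 to 23.6 on CM and 18.5 to 20.2 on NoRX arrays. Ptprc, the pan-leukocyte antigen CD45, was detected on 1 array, of CM. The last 2 sums had the order of Jag1, Jag2 and Nrarp, and their part in those differences was not tested. Each sum follows its brightest genes, so its order need not be that of the list. Des leads the stellate sum (mean -2.52 on DIFF, 0.02 on CM and -1.92 on NoRX arrays). In CM against NoRX, Des and Pdgfra rose and Col1a1 fell (-0.66 ± 0.17, adjusted p = 0.00664, limma). Myh11 was well above background on 1 NoRX array only. Itgam, the brightest leukocyte marker, did not pass there (-0.07 ± 0.08), while Csf1r and Cd14 rose.

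Rbpj, the DNA-binding partner of the Notch intracellular domain, varied least of the members after Notch1. It was at 1.42 and 1.28 on the DIFF arrays, at 1.57, 1.51 and 1.52 on the CM arrays and at 1.54, 1.44 and 1.42 on the NoRX arrays. DIFF lay below CM without overlap, and both overlapped NoRX. CM differed from NoRX by 0.07 ± 0.07 (SE), and DIFF differed by -0.12 ± 0.08 from NoRX and by -0.18 ± 0.08 from CM, with adjusted p = 0.475, 0.263 and 0.0682 in limma. Without the library DIFF 1 both DIFF differences passed, at -0.19 (adjusted p = 0.0281) and -0.25 (adjusted p = 0.0057). A dimmer Rbpj probe, detected on all 8 arrays, ranged over -2.98 and -3.23 on DIFF, -3.00, -3.27 and -3.40 on CM and -3.09, -3.13 and -2.62 on NoRX arrays. All 3 media overlapped in it, and its differences of -0.28 ± 0.19, -0.16 ± 0.21 and 0.12 ± 0.21 did not pass the test either (adjusted p = 0.253, 0.586 and 0.658). For CM against NoRX and for DIFF against CM its sign was opposite to that of the brighter probe.

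The targets did not share an order. Hes1, a transcriptional repressor and the most widely used readout of Notch activity, was at -0.46 and -0.71 on the DIFF arrays, at 0.10, 0.09 and 0.14 on the CM arrays and at 0.35, 0.35 and 0.25 on the NoRX arrays. DIFF was lowest and NoRX highest, without overlap. Hes1 was 1.87-fold lower in DIFF than in NoRX (log2 difference -0.90 ± 0.09, SE; adjusted p = 1.62e-05, limma) and 1.62-fold lower in DIFF than in CM (-0.69 ± 0.09, adjusted p = 7.45e-05). Both calls passed with array weights. The difference of CM from NoRX, -0.21 ± 0.08, did not pass (adjusted p = 0.0589), but it did in a fit of these 2 media alone (adjusted p = 0.00487) and with array weights (adjusted p = 0.00243), at a size of -0.19 to -0.25 in every alternative run.

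Nrarp, which encodes a feedback inhibitor of the Notch transcription complex, followed the order of the Jagged ligands instead. It was at -1.66 and -1.83 on the DIFF arrays, at -0.51, -0.42 and -0.43 on the CM arrays and at -1.11, -0.94 and -1.16 on the NoRX arrays, without overlap. Nrarp was 1.53-fold higher in CM than in NoRX (0.62 ± 0.10, SE; adjusted p = 0.000271, limma), 1.60-fold lower in DIFF than in NoRX (-0.68 ± 0.11, adjusted p = 0.000387) and 2.45-fold lower in DIFF than in CM (-1.29 ± 0.11, adjusted p = 1.31e-06). With array weights all 3 passed, DIFF against NoRX at adjusted p = 0.0408.

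Hey1, a repressor of the Hairy-related family, had yet another order. It was at -2.11 and -2.15 on the DIFF arrays, at -2.47, -2.98 and -2.60 on the CM arrays and at -2.33, -2.40 and -2.42 on the NoRX arrays. The media did not overlap, with DIFF highest and CM lowest. DIFF was 1.46-fold higher than CM (0.55 ± 0.17, SE; adjusted p = 0.0143, limma). That call was lost with array weights (adjusted p = 0.272) and without the library CM 2 (0.40, adjusted p = 0.0582). CM against NoRX (-0.30 ± 0.15, adjusted p = 0.115) and DIFF against NoRX (0.25 ± 0.17, adjusted p = 0.254) did not pass.

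**Figure D3:**
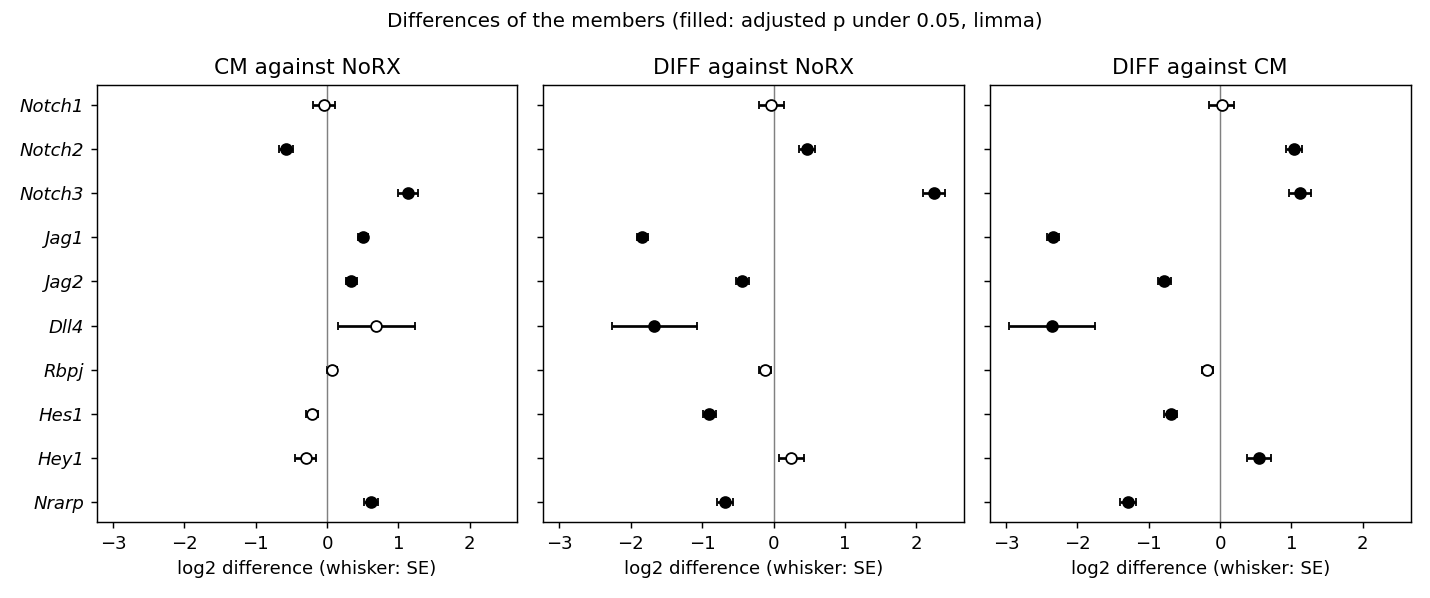
Log2 differences (horizontal axis) with SE whiskers of the 10 Notch genes for CM against NoRX, DIFF against NoRX and DIFF against CM. Filled points passed an adjusted p of 0.05 in limma; Notch3 lies to the right in all 3 panels, and Jag1, Jag2 and Nrarp lie to the right in the CM against NoRX panel and to the left in the DIFF panels.

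The order of levels thus placed CM above NoRX and NoRX above DIFF for Jag1, Jag2 and Nrarp, with every step past the threshold. Notch2 ran DIFF, NoRX, CM from high to low and Notch3 ran DIFF, CM, NoRX. Hes1 ran NoRX, CM, DIFF, where the neighbours NoRX and CM did not differ past the threshold in the pooled fit. The arrays lie in 2 rows of 1 slide, NoRX 1 to 3 and CM 1 in row 1 and CM 2, CM 3 and both DIFF arrays in row 2. Within row 1, CM against NoRX was -0.66 for Notch2, 1.19 for Notch3, 0.39 for Jag1, 0.40 for Jag2 and 0.56 for Nrarp, and all 5 passed, but row 1 holds 1 CM array, whose spread is assumed to be that of NoRX. Within row 2, DIFF against CM was 0.99 for Notch2, 1.16 for Notch3, -2.40 for Jag1, -0.75 for Jag2, -0.69 for Hes1, 0.65 for Hey1 and -1.32 for Nrarp, and all 7 passed. Dll4 was well above background on 1 of the 4 arrays of that row, so no difference is given. No row holds DIFF and NoRX together. With row as a block, DIFF against NoRX was 2.35 for Notch3, -2.01 for Jag1, -0.91 for Hes1 and -0.76 for Nrarp, which passed, and 0.33 for Notch2 and -0.35 for Jag2, which did not (adjusted p = 0.28 and 0.173). Dll4 did not pass there either (adjusted p = 0.179).

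The rest of the pathway moved about as often as genes at large. Of 64 other pathway genes tested, 13 rose and 19 fell in CM against NoRX, a share of 50%. In DIFF against NoRX 9 rose and 15 fell (37.5%), and in DIFF against CM 16 rose and 23 fell (60.9%). With array weights, 13 and 24 of them passed in the DIFF comparisons with NoRX and with CM. Dll1, Dlk1, Dner, Hes3, Hes5, Hey2, Heyl and Helt were too dim to be tested.

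**Figure D4:**
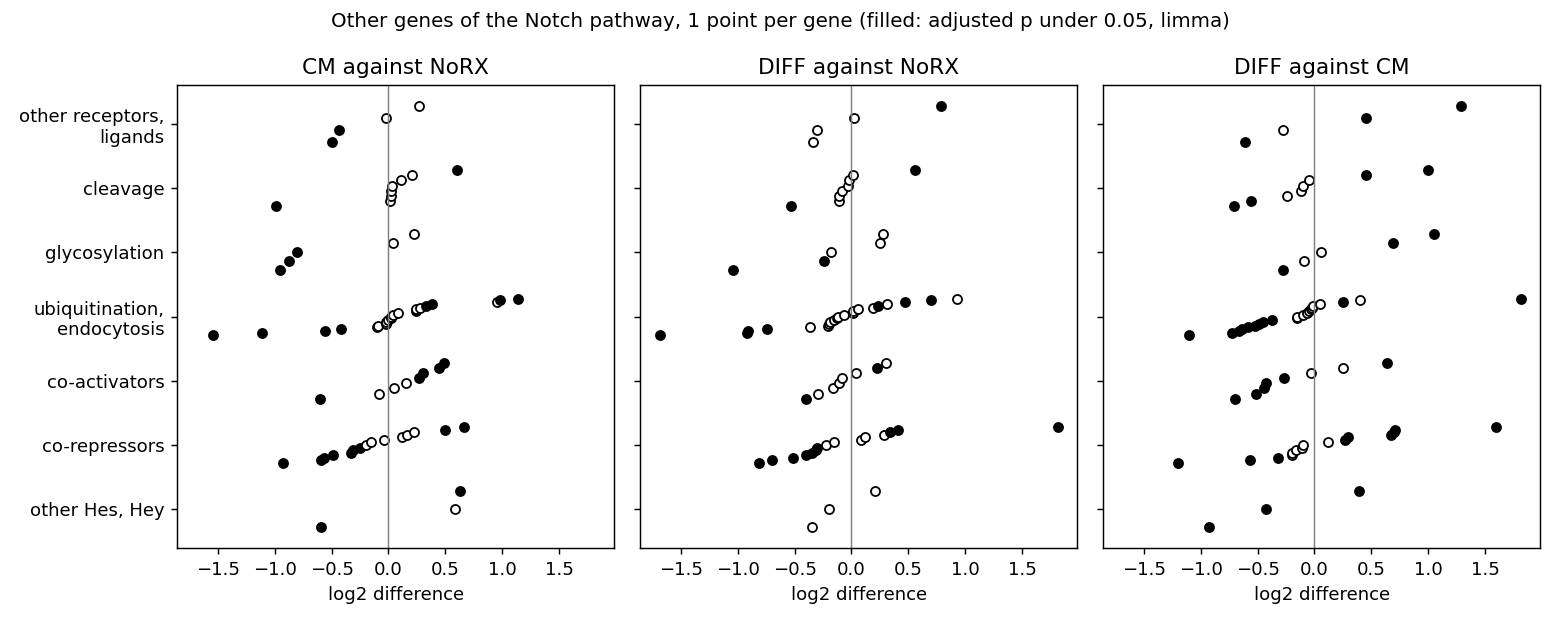
Log2 differences (horizontal axis) of the 64 other Notch pathway genes tested, 1 point per gene, in rows by role, for CM against NoRX, DIFF against NoRX and DIFF against CM. Filled points passed an adjusted p of 0.05 in limma; points lie on both sides of 0 in most roles, while the receptor glycosylation genes that passed in CM against NoRX all lie left of 0.

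Other receptors and ligands were few. Notch4, the receptor best known from endothelium, was 1.35-fold lower in CM than in NoRX (log2 difference -0.43 ± 0.08, SE; adjusted p = 0.00113, limma), and Mfap5, a matrix microfibril protein reported to bind Jagged1, was 1.41-fold lower (-0.50 ± 0.11, adjusted p = 0.00261). Mfap5 was at 0.48 and 0.12 on the DIFF arrays, at -1.11, -0.87 and -1.0 on the CM arrays and at -0.41, -0.52 and -0.55 on the NoRX arrays. It was thus highest after DIFF medium, 1.73-fold over NoRX (0.79 ± 0.12, adjusted p = 0.000327) and 2.44-fold over CM (1.29 ± 0.12, adjusted p = 3.89e-06).

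Receptor cleavage was represented by 8 tested genes, of which 1 rose and 1 fell in CM against NoRX, 25% called beside 52.2% of all genes. Psen2, a catalytic presenilin of gamma-secretase, was at 1.26 and 0.99 on the DIFF arrays, at 0.14, 0.03 and 0.19 on the CM arrays and at 1.08, 1.12 and 1.14 on the NoRX arrays. Only the CM arrays stood apart, 1.99-fold below NoRX (-0.99 ± 0.09, SE; adjusted p = 3.48e-06, limma), and DIFF was 2.01-fold above CM (1.00 ± 0.10, adjusted p = 4.12e-06). Psenen, the small gamma-secretase subunit Pen-2, went the other way in CM (0.60 ± 0.08 against NoRX, adjusted p = 9.02e-05). In DIFF, Adam10, the protease of the first cut, was 1.45-fold lower than in NoRX (-0.53 ± 0.10, adjusted p = 0.000955) and Aph1b, another gamma-secretase subunit, was 1.48-fold higher (0.56 ± 0.10, adjusted p = 0.00072).

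Of 5 enzymes that glycosylate the receptors, 3 fell in CM against NoRX, a share of 60% called beside 52.2% of all genes, and the other two did not pass. Pofut1, which adds the O-fucose, was at 3.74 and 3.38 on the DIFF arrays, at 2.85, 2.79 and 2.96 on the CM arrays and at 3.74, 3.78 and 3.70 on the NoRX arrays, a fall of 1.83-fold in CM (-0.87 ± 0.09, SE; adjusted p = 1.69e-05, limma). Poglut1, the O-glucosyltransferase, was at 1.26 and 0.90 on the DIFF arrays, at 0.01, 0.02 and 0.06 on the CM arrays and at 0.83, 0.88 and 0.79 on the NoRX arrays, 1.74-fold lower in CM than in NoRX (-0.80 ± 0.09, adjusted p = 3.08e-05). CM was the lowest medium for both, and DIFF overlapped NoRX for Pofut1. Lfng, the fringe enzyme that extends O-fucose, was lower than in NoRX in CM (-0.95 ± 0.16, adjusted p = 0.000476) and in DIFF (-1.04 ± 0.18, adjusted p = 0.00069), the DIFF call being lost with array weights (adjusted p = 0.0561).

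Among 21 genes of ubiquitination and endocytosis, 5 rose and 4 fell in CM against NoRX, 42.9% called beside 52.2% of all genes. Neurl1a, a neuralized-type ubiquitin ligase, was at -0.25 and -0.36 on the DIFF arrays, at 0.05, -0.33 and -0.19 on the CM arrays and at 1.36, 1.31 and 1.46 on the NoRX arrays. NoRX stood above both other media, by 3.21-fold over DIFF (-1.68 ± 0.11 for DIFF against NoRX, SE; adjusted p = 3.41e-07, limma) and 2.90-fold over CM (-1.54 ± 0.10 for CM against NoRX, adjusted p = 4.39e-07). Dtx4, a Deltex ubiquitin ligase, was 2.16-fold lower in CM than in NoRX (-1.11 ± 0.08, adjusted p = 1.45e-06) and 3.51-fold higher in DIFF than in CM (1.81 ± 0.09, adjusted p = 3.05e-08). Epn2, an epsin of endocytosis, and Mib2, a Mind bomb ligase that acts on ligands, were 2.20-fold (1.14 ± 0.07, adjusted p = 3.2e-07) and 1.97-fold (0.98 ± 0.08, adjusted p = 2.61e-06) higher in CM than in NoRX.

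Around Rbpj, 4 of 8 co-activator genes rose and 1 fell in CM against NoRX, and 2 of 15 co-repressor genes rose and 7 fell. These are 62.5% and 60% called, near the 52.2% of all genes. The co-activators that rose included Snw1, the SKIP protein (0.49 ± 0.07, SE; adjusted p = 0.000129, limma), and Maml3, a Mastermind-like protein (0.44 ± 0.09, adjusted p = 0.0025). The co-repressors that fell included Tle4, of the Groucho family (-0.93 ± 0.13, adjusted p = 0.000129), and the deacetylase Hdac1 (-0.59 ± 0.07, adjusted p = 2.5e-05), while Ncor1, a nuclear receptor co-repressor, rose (0.66 ± 0.07, adjusted p = 2.75e-05). In DIFF against NoRX 1 co-activator rose and 1 fell, and 3 co-repressors rose and 7 fell. These are 25% and 66.7% called, beside 42.1% of all genes, in the fit without array weights. Fhl1, a LIM domain gene with a spliced form that binds Rbpj, was 3.51-fold higher in DIFF than in NoRX (1.81 ± 0.18, adjusted p = 1.15e-05), and Tle3 was 1.75-fold lower (-0.81 ± 0.08, adjusted p = 1.62e-05).

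Other Hes genes also moved in both directions. Hes7 was 1.55-fold higher in CM than in NoRX (0.63 ± 0.08, SE; adjusted p = 7.42e-05, limma) and Hes6, which encodes an antagonist of Hes1, was 1.5-fold lower (-0.59 ± 0.07, adjusted p = 4.49e-05). Of 17 tested genes known as Notch targets in other tissues, 9 rose and 7 fell in CM against NoRX, 94.1% called beside 52.2% of all genes. In DIFF against NoRX 1 rose and 10 fell (64.7% beside 42.1%), and in DIFF against CM 5 rose and 10 fell (88.2% beside 59.2%). These DIFF shares come from the fit without array weights. The list was chosen with earlier results of these data known, so its shares are a description and not a test. Spp1, which encodes osteopontin, was at -4.50 and -4.64 on the DIFF arrays, at 0.17, -0.43 and 0.03 on the CM arrays and at -2.44, -2.31 and -2.44 on the NoRX arrays, again in the order of Jag1. It was well above background on only 1 of the 2 DIFF arrays. Sox9, the transcription factor of biliary progenitors, was at -0.20 and -0.46 on the DIFF arrays, at 0.80, 0.74 and 0.90 on the CM arrays and at 1.29, 1.34 and 1.32 on the NoRX arrays, in the order of Hes1. Biliary markers as a list moved both ways: of 15, 3 rose and 8 fell in DIFF against NoRX in the fit without array weights, 73.3% called beside 42.1% of all genes. Their summed signal was 567 to 710 on DIFF, 426 to 434 on CM and 600 to 643 on NoRX arrays. That sum mostly follows its brightest gene, Krt19 (mean 8.44 on DIFF, 8.43 on CM and 8.97 on NoRX arrays), and on DIFF also Aqp1 (mean 7.4). Its order is therefore not that of the list. Aqp1, a water channel of bile duct cells, was 6.07-fold higher in DIFF than in NoRX (2.6 ± 0.15, SE; adjusted p = 1.33e-07, limma). Krt7 (1.67 ± 0.11, adjusted p = 2.48e-07) and Cd24a (0.95 ± 0.07, adjusted p = 1.07e-06) also rose. Prom1 was 7.92-fold lower (-2.99 ± 0.17, adjusted p = 1.05e-07), though well above background on only 1 of the 2 DIFF arrays. Epcam was 3.59-fold lower (-1.84 ± 0.13, adjusted p = 4.46e-07). Snai2, a transcriptional repressor of epithelial genes, was lowest after CM, at 1.12 and 1.05 on DIFF, -1.04, -1.18 and -0.98 on CM and 1.17, 1.34 and 1.19 on NoRX arrays.

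The genes whose levels over the 8 arrays were most like those of the members were ranked among 11518 genes by Pearson's r, as a description of 3 media on 1 slide. For Jag1 they were Btc (r = 0.9996), Lratd1 (0.9992) and Tmem117 (0.9992). For Nrarp they were Alpi (0.9988), Myh14 (0.9971) and Snx20 (0.9971), and for Hes1 they included Trim2 (0.9974) and Kif16b (0.9966). Hey1 had its highest r with Depdc1b (0.9526), Melk (0.9504) and Ckap2 (0.9497).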

How the data were processed

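Total RNA of 8 samples was labelled with Cy3 and hybridised to Agilent mouse 60K expression arrays, 1 sample per array on 1 slide. The authors deposited Feature Extraction output (version 11.0.1.1, per the submitters' processing notes), whose processed signal is a background-subtracted intensity, per the file headers. The deposited value table holds the same numbers, with a largest difference of 0. From these intensities log2 values were computed here, and each array's 75th percentile was subtracted. Outlier spots were left out, which gave 30 missing values. Control spots aside, there were 55681 probes, of which 27235 could be tied to a RefSeq gene by accession and 28446 could not. Per gene the brightest probe was kept, if well above background on at least 2 arrays. The number of arrays limits the precision.

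A single limma fit (R 4.3.3, limma 3.58.1) with a mean-variance trend covered all 8 arrays and 14025 genes, with two-sided tests; p-values were adjusted by Benjamini and Hochberg's method across these genes, and 0.05 was the threshold. It was tested on simulated data with each medium's own spread: in the DIFF comparisons it called unchanged genes more often than the threshold allows, and much less so with array weights. All members were named, and of each list of other pathway genes up to 4 per comparison with the largest difference among genes that passed without overlap of the media. Members and lists were chosen with earlier results of these data known. The normexp alternative used the median spot and background signals in place of the mean spot signal that had been planned, which is not a column of the files used here. Promoters came from RefSeq's GRCm38.p6 table and were matched by symbol. Probe positions in the genome were not used here.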

Additional observations from a re-analysis of the deposited data

How the results depend on the processing

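Over 677 combinations of a Notch gene, a comparison and an alternative, 627 kept direction and side of the threshold, 19 lost a call, 13 gained one and 18 changed sign. The deposited value table was 1 of the alternatives and holds the same numbers, so its combinations could only stay the same. No spot of a Notch gene was flagged for uneven local background, so leaving out flagged spots could not change a Notch gene's difference. With slide row as a block 4 Notch genes changed in DIFF against NoRX, and with array weights 4, against 7. Of the other pathway genes, 10 passed there with row as a block and 13 with array weights, against 24, and in DIFF against CM 24 passed with array weights, against 39. All genes that passed numbered 4796 (row block) against 7325 for CM over NoRX, 2801 (row block) and 3041 (array weights) against 5911 for DIFF over NoRX, and 5383 (array weights) against 8303 for DIFF over CM. Leaving out 1 array at a time gave 5 to 6, 6 to 7 and 7 to 9 Notch genes for CM over NoRX, DIFF over NoRX and DIFF over CM. Other pathway genes that passed numbered 26 to 38, 20 to 42 and 32 to 48. Beside them stood 6108 to 9309, 4730 to 8488 and 7340 to 9787 of all 14025 genes. Both the 42 and the 8488 were without DIFF replicate 1. The median difference of all genes in DIFF against CM was -0.113, and -0.006 after normexp. Relative to the median of all genes, every Notch gene that passed kept its sign.

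Notch1 passed nowhere by its brighter probe. Its CM against NoRX difference was 0.71 with the mean of its probes, 0.18 with row as a block, 0.18 within row 1 and -0.16 to 0.06 with 1 array left out. Its DIFF against NoRX difference was 0.15 after normexp, 0.03 after median centring, 3.57 with the mean of its probes (adjusted p = 0.00753, limma, which takes in the disturbed DIFF 2 spot), 0.31 with row as a block and -0.15 to 0.09 with 1 array left out, and against CM the last range was -0.10 to 0.14. Rbpj was -0.11 for CM against NoRX with the mean of its probes. Dll4 in DIFF after normexp was 0.24 relative to NoRX and 0.02 relative to CM. The cause of the other changes was not tested.

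The labels do not say that replicate numbers pair the samples. Deviations of same-numbered arrays correlated at -0.023, 0.008 and -0.06 between CM and NoRX, -0.023 and -0.024 between DIFF and NoRX, and 0.091 and 0.181 between DIFF and CM. The 2 DIFF arrays deviate from their mean as mirror images, so the values with DIFF cannot decide whether the numbers pair. The numbers were not taken as pairs. With the number as a replicate block, 5, 6 and 8 Notch genes passed, and the 1 call lost was Dll4 in DIFF against NoRX (-1.37, adjusted p = 0.0889). In that fit 6867 of all genes passed in CM against NoRX, and 7325 did so without the block. The labels number the DIFF arrays 1 and 2 in the title and both 1 in the source name. Averaging them to 1 sample also ended that Dll4 call. Dll4's dim signal leaves its DIFF values as bounds.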
